A study of Mus musculus with 6 samples.

Results

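In all, 36 integrin and laminin genes of the mouse were followed in ectopic endometriotic lesions that formed from Dnmt3a knockout or control endometrium. The members were genes of the 56884 in the count table whose symbol names an integrin alpha chain, an integrin beta chain or a laminin chain. They comprised 26 integrins, with 18 alpha and 8 beta chains, and 10 laminin chains. All 36 had enough reads to be tested, among 18177 genes tested in all.

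Each lesion came from endometrial tissue of a donor mouse that was placed into the abdomen of a wild-type C57BL/6J recipient carrying an estrogen pellet, and each of the 6 lesions gave 1 library of whole-lesion mRNA. The 3 control lesions (WT) came from Dnmt3a f/f donors and the 3 knockout lesions (KO) from Dnmt3a f/f:PR-Cre/+ donors, in which Cre recombinase is made in cells with progesterone receptor. Donors and recipients were 8 weeks old, and donors of both groups had been injected with estradiol. The labels put collection at 4 weeks, whereas the study's methods give day 21. WT donors carried no PR-Cre allele, so an effect of that allele and the loss of Dnmt3a cannot be told apart. Leukocytes and vessels that entered a lesion from the recipient kept an intact Dnmt3a gene. Levels are given as CPM, counts scaled to library size, always in the order of replicates 1, 2 and 3. Dnmt3a itself measured 52.7, 43.9 and 51.7 CPM for WT, against 30.3, 33.5 and 36.2 CPM for KO lesions, a log2 fold change of -0.57, and every KO lesion lay below every WT lesion.

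Integrins are receptors made of an alpha and a beta chain that tie cells to extracellular matrix or to other cells. Leukocytes use their own set, mostly built on Itgb2, Itga4 and Itgb7, to adhere to endothelium and to crawl through tissue. Epithelial and stromal cells use mainly Itgb1 with many alpha partners, and integrins that contain Itgav bind matrix proteins with an RGD motif and can activate latent TGF-beta. Laminins are trimers of an alpha, a beta and a gamma chain and form the sheet of the basement membrane under epithelium and around vessels and muscle fibres. Attachment of shed endometrium to the peritoneum and growth of its glands both involve these molecules.

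Libraries held 45370342 to 57239184 counts, and the lesions differed in their cell content. WT replicate 2 stood apart by its leukocyte transcripts: its 8 neutrophil markers summed to 9847 CPM, against 214 and 479 CPM in the other WT lesions and 37.3 to 185 CPM in KO lesions. The 8 skeletal muscle markers summed to 28496 and 30807 CPM in WT replicates 1 and 3 and to at most 15.5 CPM in the other 4 lesions. KO replicate 3 had the highest sums of the uterine stroma list (3649 CPM), the endothelium list (590 CPM) and the adipocyte list (4164 CPM), and the lowest of the epithelium list (1964 CPM against up to 3566 CPM). Of the stroma list, Dcn (2202 CPM), Lum and Pdgfra were above the other KO lesions there. Esr1 (226 CPM) and Pgr (151 CPM) were below them, and Hoxa10 and Hoxa11 lay between. Epithelial and uterine stromal markers were present in all lesions, intestinal markers summed to at most 3.8 CPM, and Foxa2, a uterine gland factor, did not exceed 2.62 CPM. In whole-lesion RNA, fewer cells of a type and less RNA per cell cannot be told apart.

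Integrin and laminin transcripts were mostly at lower levels in KO lesions. Of the 36 members, 30 had a log2 fold change (KO against WT) below zero, or 83.3%, compared with 48.6% of all genes tested. The median was -0.44 over the members and 0.01 over all genes. At an unadjusted p under 0.05 in edgeR's quasi-likelihood test, 7 members (19.4%) were lower in KO lesions, where 8.16% of all genes were, and 0 were higher, where 6.55% of all genes were. The 7 were Itgal, Itgb7, Itga2, Itgav, Lama3, Lama5 and Lamc3. None of the 36 had an adjusted p under 0.05 in edgeR, whose adjusted p ran from 0.321 to 0.946, and 0.0055% of all genes were called lower by that rule. DESeq2's Wald test with Benjamini-Hochberg adjustment called 3 members lower, Itgal (adjusted p = 0.0386), Itga2 (adjusted p = 0.0469) and Lamc3 (adjusted p = 0.0469), where it called 3.9% of all genes lower.

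The number of members called changed with single lesions. Without WT replicate 2 there were 5 lower members (Itgal, Itga2, Itgb6, Itgav and Lamc3) and 0 higher ones beside 9.64% and 4.21% of all genes, and without WT replicate 3 also 5 beside 7.61%. Without KO replicate 1 only 1 member was called, beside 3.7% of all genes, and without KO replicate 2 only 1, beside 4.22%, and both times it was Itgav. Without KO replicate 3 there were 16 lower members beside 12.4% of all genes, and 1 higher member, Itga6, beside 11.5%. KO replicate 3 was above both other KO lesions for 24 of the 36 members, beside 37.7% of all genes. KO replicates 1 and 2 held the lowest value of 25 members (69.4%), beside 36.1% of all genes. A WT lesion held the highest value of 26 members (72.2%), beside 47.6% of all genes.

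**Figure D1:**
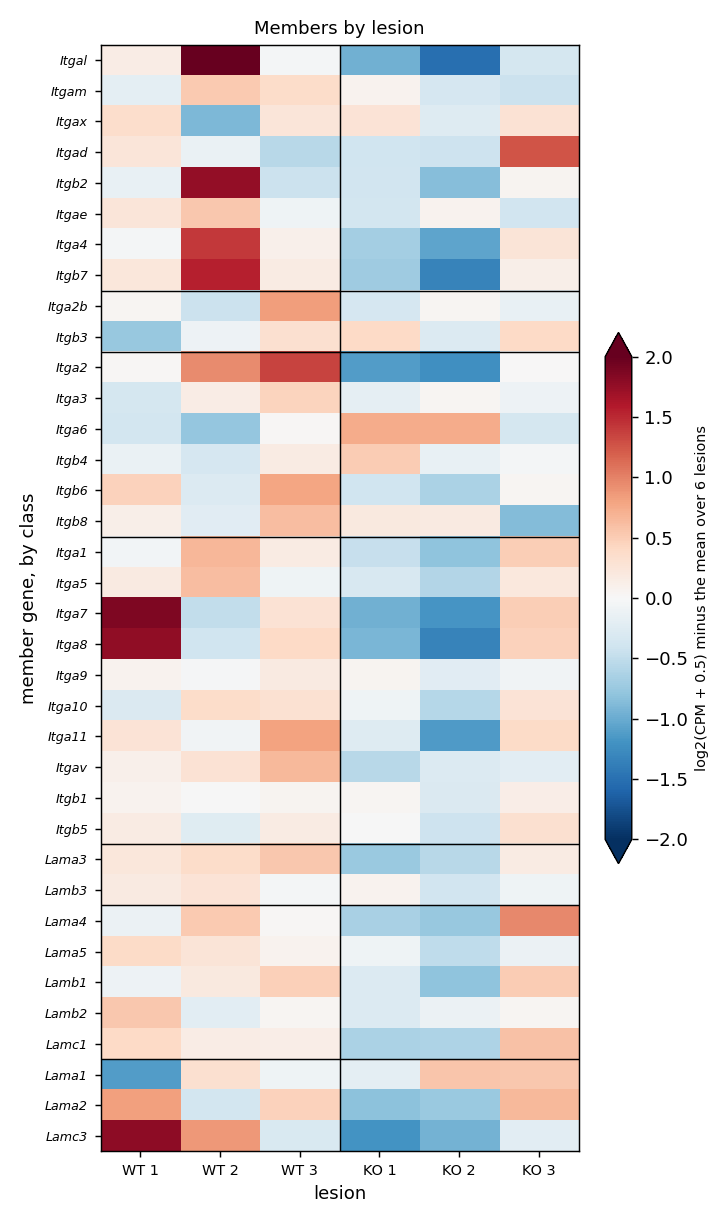
Levels of the 36 members in each lesion, as log2(CPM + 0.5) minus the mean of that gene over the 6 lesions (red higher, blue lower, colours ending at 2 in either direction), with rows grouped by class and a vertical line between WT and KO. KO replicates 1 and 2 hold the lowest value of 25 members, and WT replicate 2 the highest values of most leukocyte integrins.

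**Figure D2:**
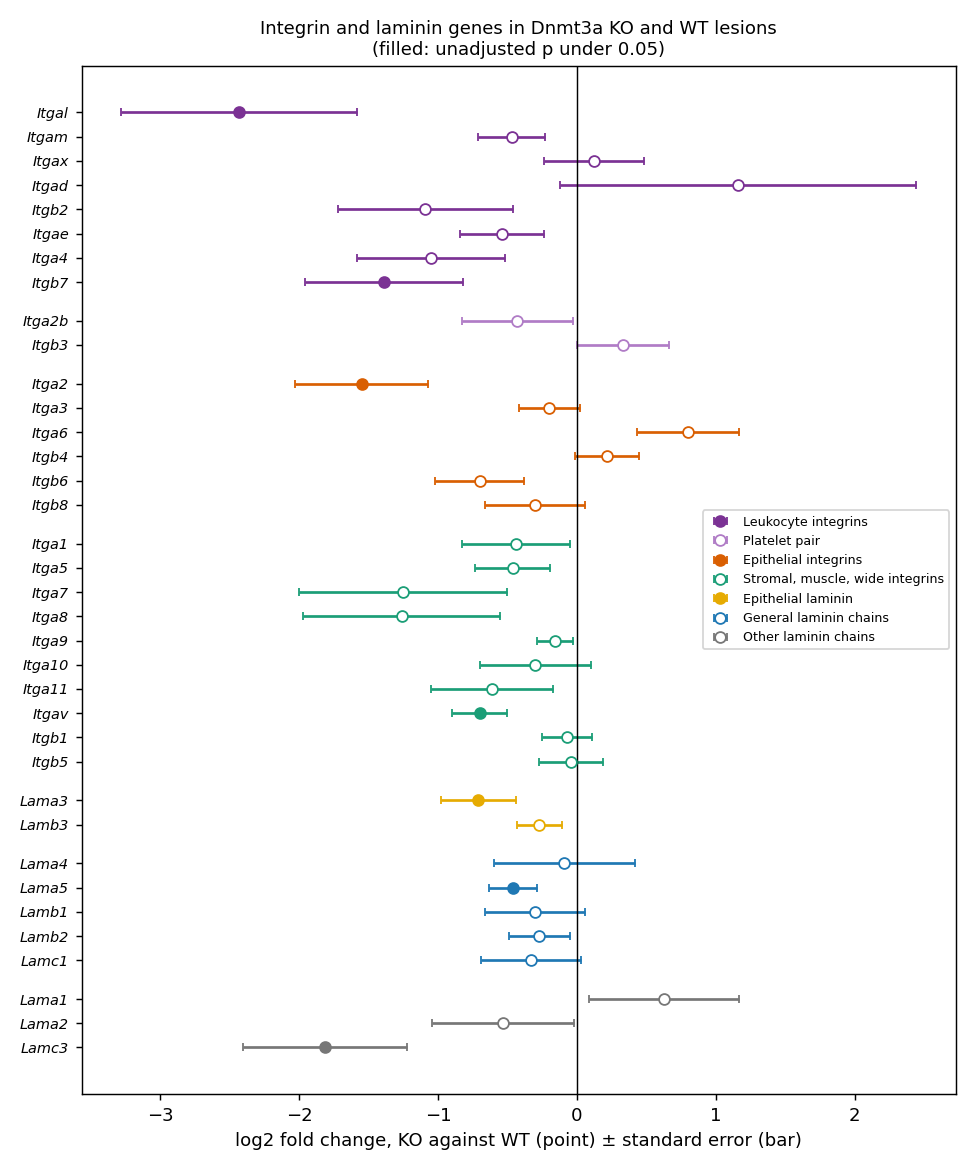
Log2 fold change of each member, KO against WT, with its standard error as a bar (3 lesions per group), coloured by class and filled where the unadjusted p was under 0.05. Points left of zero, 30 of 36, are lower in KO lesions.

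Groups did not overlap for 6 members, Itgal, Itgb7, Itga2, Itgav, Lama3 and Lama5, each with every KO lesion below every WT lesion. The same held for 8.74% of all genes tested. For 0 members did every KO lesion lie above every WT lesion, which held for 10.7% of all genes. With 3 lesions against 3 an exact two-sided permutation test cannot go below p = 0.1, which is its value for each of the 6.

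**Figure D3:**
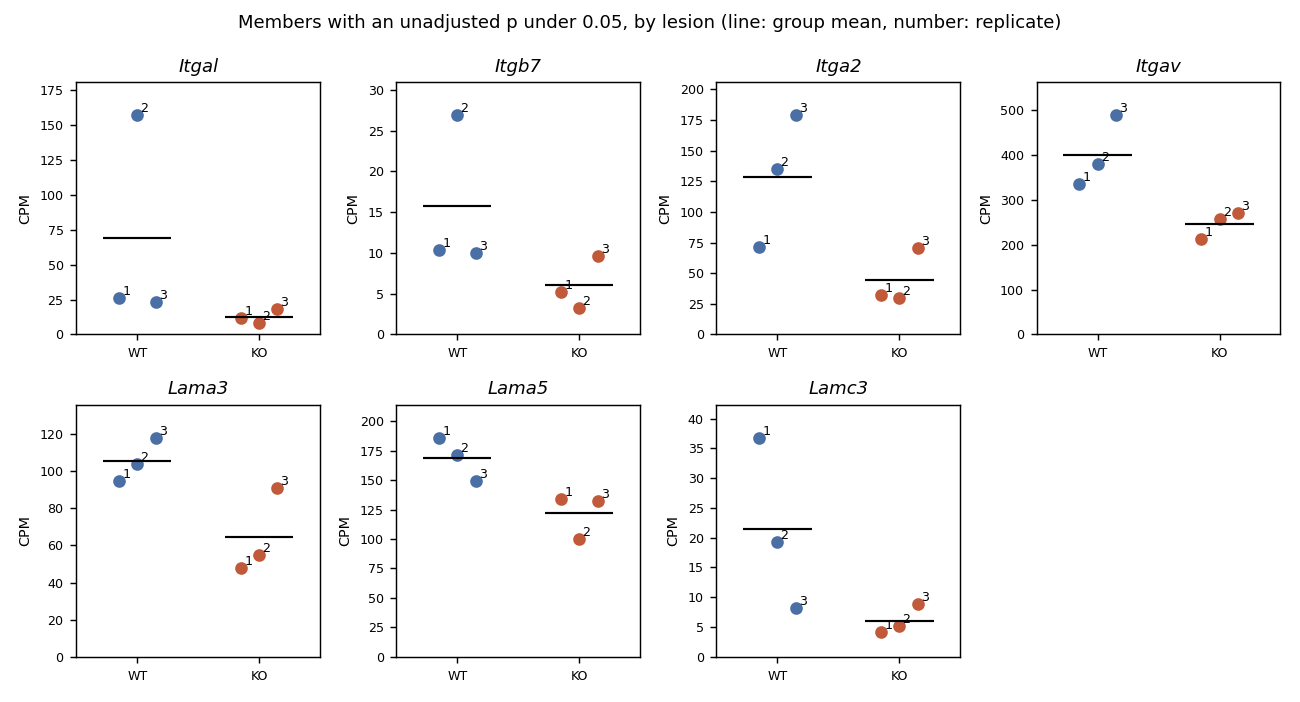
CPM of the 7 members with an unadjusted p under 0.05, each point 1 lesion numbered by its replicate, the line the group mean, all axes starting at zero. KO lesions lie below WT lesions without overlap for 6 of them, whereas Lamc3 overlaps, and the Itgal and Itgb7 means of WT are pulled up by WT replicate 2.

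Dnmt3a methylates DNA at CpG sites, so the CpG content of the promoters describes what could have been methylated, although methylation itself was not measured in these libraries. Windows of 150 bases directly before the start site were read from RefSeq promoters (build GRCm38.p6), which covered 23 of the 36 members and 4 of the 7 called ones. Those 4 and the promoter of Itgb1, the most abundant member, are printed 5′ to 3′ on the strand of the gene, with each CpG in capitals. The window of Itga2 is chr13:114932101-114932250 on the minus strand, that of Itgav chr2:83724247-83724396 on the plus strand, that of Lama5 chr2:180225860-180226009 on the minus strand, that of Itgb7 chr15:102231936-102232085 on the minus strand and that of Itgb1 chr8:128685504-128685653 on the plus strand.

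Itga2: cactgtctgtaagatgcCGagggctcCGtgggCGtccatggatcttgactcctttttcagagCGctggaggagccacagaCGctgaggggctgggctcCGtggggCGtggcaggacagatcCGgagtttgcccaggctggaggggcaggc

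Itgav: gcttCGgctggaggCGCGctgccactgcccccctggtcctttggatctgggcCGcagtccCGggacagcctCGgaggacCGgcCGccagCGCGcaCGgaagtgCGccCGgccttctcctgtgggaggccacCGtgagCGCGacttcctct

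Lama5: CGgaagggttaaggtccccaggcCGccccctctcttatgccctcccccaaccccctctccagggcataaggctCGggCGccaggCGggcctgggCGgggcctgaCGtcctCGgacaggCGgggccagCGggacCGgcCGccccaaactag

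Itgb7: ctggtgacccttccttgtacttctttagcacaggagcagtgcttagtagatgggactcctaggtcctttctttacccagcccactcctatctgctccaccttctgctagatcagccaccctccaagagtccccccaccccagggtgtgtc

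Itgb1: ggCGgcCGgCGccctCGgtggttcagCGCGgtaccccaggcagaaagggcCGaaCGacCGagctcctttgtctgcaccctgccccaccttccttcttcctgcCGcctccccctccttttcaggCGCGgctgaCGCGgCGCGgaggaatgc

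The windows differed widely in CpG number. Itgb7 had 0, which 14.3% of the 32851 mouse windows also had. Itga2 had 8, and 68.3% of windows had as many or fewer, Lama5 had 12 (79.7%), and Itgav and Itgb1 had 16 each (89%). Itgav, with a lower level in every KO lesion, and Itgb1, with a log2 fold change of -0.07, thus had the same number. The median was 6 CpGs over the 26 windows of members and 4 over all windows. Of letters searched on both strands, GAGGAA, a core bound by ETS factors such as PU.1, was found in 10 of the 26 windows and 14.5% of all windows, GGGCGG, bound by SP factors, in 7 windows and 28.6% of all, and TGANTCA, bound by AP-1, in 1 window and 4.24% of all. The GAGGAA letters were in 1 of the 4 windows of leukocyte integrins. Overlaps between matches of different motifs were not counted, and the matches describe the sequence only.

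Leukocyte integrins had a median below zero that moved with WT replicate 2. Of the 8 genes Itgal, Itgam, Itgax, Itgad, Itgb2, Itgae, Itga4 and Itgb7, 2 were lower at an unadjusted p under 0.05, beside 8.16% of all genes. Below zero were 6, beside 48.6% of all genes. The median log2 fold change was -0.80, or -0.34 without WT replicate 2. In that fit 1 of the 8 was lower, beside 9.64% of all genes. Itgal encodes the alpha chain of LFA-1, the receptor that lymphocytes and other leukocytes use to bind ICAM1. It measured 26.2, 157 and 23.0 CPM for WT, against 11.8, 8.01 and 18.3 CPM for KO lesions. WT replicate 2 was far above all others, and the remaining WT lesions still lay above every KO lesion. The means were 68.7 ± 76.3 CPM in WT and 12.7 ± 5.23 CPM in KO lesions (SD, n = 3 each), with a log2 fold change of -2.43 and a standard error of 0.85 (edgeR, unadjusted p = 0.0292, adjusted p = 0.328). Without WT replicate 2 the log2 fold change was -0.95 with an unadjusted p of 0.0441. Leaving out KO replicate 1 or 2 gave an unadjusted p of 0.0871 or 0.0888.

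Itgb7 encodes the beta chain that pairs with Itga4 to bind MAdCAM1 and with Itgae to bind E-cadherin. Its levels were 10.4, 26.9 and 10 CPM for WT, against 5.19, 3.22 and 9.63 CPM for KO lesions, so that KO replicate 3 came just under the lowest WT lesion. The log2 fold change was -1.39 ± 0.57 (SE, edgeR, unadjusted p = 0.0496), and -0.76 with an unadjusted p of 0.167 without WT replicate 2. Its partners gave similar directions without passing the test. Itga4, which also forms VLA-4 with Itgb1, had means of 47.8 CPM in WT and 23.0 CPM in KO lesions (log2 fold change -1.05, unadjusted p = 0.0963), and Itgae, an alpha chain of intraepithelial T cells and some dendritic cells, stayed between 2.17 and 4.52 CPM in all lesions.

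Itgb2, the beta chain shared by the leukocyte partners Itgal, Itgam, Itgax and Itgad, measured 95.7, 360 and 78.9 CPM for WT, against 81.7, 58.6 and 110 CPM for KO lesions. Only WT replicate 2 stood out, and the other 5 lesions overlapped. The log2 fold change of -1.09 ± 0.63 (SE, edgeR, unadjusted p = 0.136) became -0.06 without WT replicate 2. Itgam, the alpha chain of the complement receptor of neutrophils and macrophages, had means of 150 CPM in WT and 108 CPM in KO lesions (log2 fold change -0.47, unadjusted p = 0.0948). Itgax, found on dendritic cells and macrophages, ranged from 15.9 to 38.6 CPM with its lowest value in WT replicate 2 and a log2 fold change of 0.12. Itgad did not exceed 1.42 CPM. Itgam shares 3450 exon bases on the same strand with Gm49368 in GENCODE M21, so its count is uncertain.

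The leukocyte marker sums given next, like most of these genes, were highest in WT replicate 2. The 4 pan-leukocyte markers Ptprc, Cd53, Coro1a and Laptm5 summed to 446 to 1780 CPM in WT and 343 to 565 CPM in KO lesions, the 8 T cell markers to 35.8 to 100 and 7.71 to 27.9 CPM, the 5 B cell markers to 9.21 to 77.3 and 7.27 to 9.81 CPM, and the 8 macrophage markers to 1076 to 2499 and 520 to 1228 CPM. Of the T cell markers, 7 of 8 were lower at an unadjusted p under 0.05, as were 4 of 5 B cell and 3 of 7 tested neutrophil markers. Ptprc, which encodes the leukocyte antigen CD45, had itself a log2 fold change of -2.43 (unadjusted p = 0.0412), and of -0.69 without WT replicate 2 (unadjusted p = 0.0978). Ratios within each lesion set the integrins against these leukocyte transcripts, and no further test of leukocyte number was made.

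Per Ptprc, Itgal was nearly constant. The ratio of Itgal CPM to Ptprc CPM was 0.300, 0.240 and 0.302 for WT, against 0.250, 0.248 and 0.254 for KO lesions, and the groups overlapped (exact two-sided permutation test, p = 0.4, adjusted p = 0.533 over 8 ratios). For Itgb2 the ratio was 1.10, 0.551 and 1.04 for WT, against 1.73, 1.81 and 1.53 for KO lesions, higher in every KO lesion (mean 0.894 ± 0.298 against 1.69 ± 0.147, SD, n = 3, exact permutation p = 0.1, adjusted p = 0.4). Itgax per Ptprc was also higher in every KO lesion, with 0.441, 0.0243 and 0.470 for WT, against 0.772, 0.776 and 0.511 for KO lesions (exact permutation p = 0.1, adjusted p = 0.4). The ratios depended on the denominator. Divided by the sum of the 4 pan-leukocyte markers, Itgb2 lay between 0.171 and 0.202 in all 6 lesions with overlapping groups, and Itgal was lower in every KO lesion, at 0.0508, 0.0880 and 0.0516 for WT, against 0.0250, 0.0233 and 0.0325 for KO lesions. Laptm5, which is abundant in macrophages, held the largest part of that sum in all lesions but WT replicate 2 and had a log2 fold change of -0.07.

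**Figure D4:**
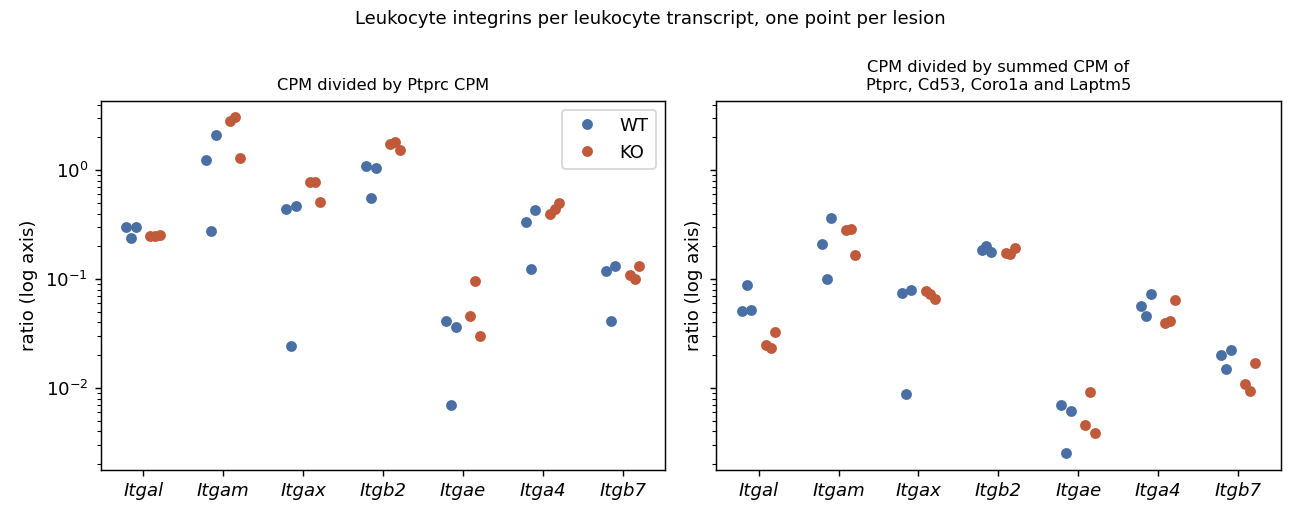
Ratio of the CPM of 7 leukocyte integrins to the CPM of Ptprc (left) and to the summed CPM of 4 pan-leukocyte genes (right), 1 point per lesion on a log axis. Itgal is level between the groups on the left and lower in each KO lesion on the right, and Itgb2 is higher in each KO lesion on the left and level on the right. Itgad is left out for its low level.

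Among the 4 alpha partners of Itgb2, compared by CPM per kilobase of exon, Itgam made the largest share in every lesion. The share of Itgal was 11.8%, 37.8% and 8.14% in WT and 5.01%, 4.65% and 9.51% in KO lesions, where WT replicate 2 again lay apart and the rest overlapped (exact permutation p = 0.2, adjusted p = 0.8 over 12 chain shares). Itgam shares ran from 56.8% to 75.3% and Itgax shares from 5.24% to 26.2%.

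The platelet integrin chains Itga2b and Itgb3, whose product binds fibrinogen on platelets, showed 0 calls. Itga2b stayed between 2.84 and 7.52 CPM. Itgb3, which also pairs with Itgav on vessels, macrophages and endometrium, ranged from 49.3 to 105 CPM in WT and from 69.5 to 111 CPM in KO lesions. Platelet markers summed to 18.3 to 37.1 CPM in WT and 5.48 to 30.2 CPM in KO lesions, and Gp1bb was at 0 in all.

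Among the epithelial integrins Itga2, Itga3, Itga6, Itgb4, Itgb6 and Itgb8, 1 was lower at an unadjusted p under 0.05, as were 8.16% of all genes, and the median log2 fold change was -0.25. Itga2 encodes the alpha chain of a collagen and laminin receptor that epithelium and platelets carry. It measured 71.2, 135 and 179 CPM for WT, against 32.1, 29.7 and 70.4 CPM for KO lesions. The highest KO lesion, replicate 3, lay just under the lowest WT lesion, replicate 1. The means were 129 ± 54.4 and 44.1 ± 22.9 CPM (SD, n = 3), 2.93-fold higher in WT by the fit, with a log2 fold change of -1.55 ± 0.48 (SE, edgeR, unadjusted p = 0.0176, adjusted p = 0.325). Its log2 fold change lay between -2.06 and -1.24 with each lesion left out, and 3 of those 6 fits had an unadjusted p under 0.05. The epithelial marker list, with 1 of 10 genes lower (Cldn4), summed to 2153 to 3229 CPM in WT and 1964 to 3566 CPM in KO lesions, with overlapping groups.

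Itga6 and Itgb4 together form the laminin receptor of hemidesmosomes, and both were above zero. Itga6, described here because of its values, ranged from 250 to 435 CPM in WT lesions and measured 719, 718 and 336 CPM in the KO replicates. KO replicates 1 and 2 were well above all WT lesions and KO replicate 3 was among them. The log2 fold change was 0.80 ± 0.37 (SE, edgeR, unadjusted p = 0.0713), and 1.09 without KO replicate 3 (unadjusted p = 0.0101). The epithelial marker sums showed the same order of KO lesions, with 3566 and 3191 CPM in replicates 1 and 2 and 1964 CPM in replicate 3, and their part in the result was not tested. Itgb4 had means of 126 CPM in WT and 146 CPM in KO lesions (log2 fold change 0.22).

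The remaining epithelial chains did not pass the test. Itga3, the other main epithelial laminin receptor chain, had means of 55.5 and 48.4 CPM in WT and KO lesions. Itgb6, an epithelial partner of Itgav that activates TGF-beta, measured 65.8, 39.5 and 83.2 CPM for WT, against 36.2, 30.7 and 49.2 CPM for KO lesions (log2 fold change -0.70, unadjusted p = 0.0697). Without WT replicate 2, its lowest WT lesion, the log2 fold change was -0.94 (unadjusted p = 0.0104). Itgb8, another Itgav partner, had means of 112 and 90.7 CPM.

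All 10 integrins of stroma, muscle and wide expression were below zero, beside 48.6% of all genes. They ranged from -1.26 to -0.04 with a median of -0.45. Only 1 of the 10, Itgav, was lower at an unadjusted p under 0.05, beside 8.16% of all genes. Itgav is the alpha chain of the vitronectin receptors, with Itgb1, Itgb3, Itgb5, Itgb6 and Itgb8 as partners. It measured 335, 380 and 489 CPM for WT, against 212, 258 and 270 CPM for KO lesions, with a gap between the groups and no outlying lesion. The means were 401 ± 79.4 and 247 ± 30.8 CPM (SD, n = 3), 1.62-fold higher in WT by the fit, and the log2 fold change was -0.70 ± 0.20 (SE, edgeR, unadjusted p = 0.0132, adjusted p = 0.321). Itgav was the only member with an unadjusted p under 0.05 in all 6 fits that left out a lesion, from 0.0125 to 0.0489. Its exons share 634 bases with Gm13684 on the opposite strand.

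Itgb1, the beta chain that most alpha chains share, hardly differed. It measured 883, 830 and 873 CPM for WT, against 860, 684 and 920 CPM for KO lesions, with overlapping groups and a log2 fold change of -0.07 ± 0.18 (SE, edgeR, unadjusted p = 0.715). Its sign turned to 0.02 with upper quartile scaling and to 0.05 without KO replicate 2. Itgb5, a further Itgav partner, had means of 243 and 237 CPM.

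Of the other chains in this class, Itga7, the laminin receptor chain of muscle, and Itga8, found on smooth muscle and mesenchyme, had the lowest fold changes (-1.25 and -1.26) without passing the test (unadjusted p = 0.146 and 0.128). Both were highest in WT replicate 1, at 115 CPM for Itga7 and 209 CPM for Itga8. Without that lesion their log2 fold changes were -0.30 and -0.44, no longer the lowest of the class (Itgav -0.82). WT replicate 1 had 28496 CPM of skeletal muscle markers and the highest smooth muscle sum (4817 CPM against 1039 to 3651 CPM elsewhere). Des made 2675 CPM of that sum, whereas Myh11, Cnn1 and Smtn of the same list were lower there than in every KO lesion. Acta2 and Tagln lay among the KO lesions. WT replicate 3 had 30807 CPM of skeletal muscle markers with 38.3 CPM of Itga7 and 80.5 CPM of Itga8. KO replicate 3 had 13.1 CPM of these markers, with 44.3 CPM of Itga7 and 84.2 CPM of Itga8. The part of muscle content in the result was not tested. The collagen receptor chains Itga1, Itga10 and Itga11, the fibronectin receptor chain Itga5 and the tenascin receptor chain Itga9 lay between -0.61 and -0.16. Without KO replicate 3, the lesion with the highest sums of the uterine stroma, endothelium and adipocyte lists, the class median was -0.74. In that fit 4 of the 10 were lower, including Itga1, Itga5 and Itga8, beside 12.4% of all genes.

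Laminin chains also lay mostly on the lower side, with a median of -0.31 on the log2 scale. Of the 10, 9 were below zero, 3 were lower at an unadjusted p under 0.05, and 9 had their lowest level in KO replicate 1 or 2, beside 48.6%, 8.16% and 36.1% of all genes. Without WT replicate 2 only 1 laminin was called (9.64% of all genes) with a median of -0.40, and without KO replicate 3 there were 7 (12.4% of all genes) with a median of -0.79. Lama3 and Lamb3 are chains of epithelial laminin, which anchors epithelium to the basement membrane and is the ligand of the receptor formed by Itga6 and Itgb4. Lama3 measured 94.4, 104 and 118 CPM for WT, against 47.8, 54.7 and 90.8 CPM for KO lesions. All KO lesions were lower, with replicate 3 close to WT, and the log2 fold change was -0.71 ± 0.27 (SE, edgeR, unadjusted p = 0.0364, adjusted p = 0.332), or -1.04 without KO replicate 3 (unadjusted p = 0.00124). In the other 5 fits that left out a lesion, the unadjusted p of Lama3 was over 0.05, up to 0.112, and with upper quartile scaling it was 0.055.

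Lamb3 had means of 89.4 and 74.4 CPM (log2 fold change -0.27, unadjusted p = 0.151). The difference between Lama3 and Lamb3 was not tested, nor was the part of epithelial content in either.

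The 5 chains of general and vascular basement membranes, Lama4, Lama5, Lamb1, Lamb2 and Lamc1, had a median of -0.30. Lama5, the alpha chain of most mature epithelial and vascular basement membranes, measured 186, 171 and 149 CPM for WT, against 134, 100 and 132 CPM for KO lesions. The groups did not overlap, the means were 169 ± 18.4 and 122 ± 19.2 CPM (SD, n = 3), and the log2 fold change was -0.46 ± 0.17 (SE, edgeR, unadjusted p = 0.0339, adjusted p = 0.331). It was the smallest change among the 7 called members. Of the 6 fits that left out a lesion, 2 had an unadjusted p under 0.05 for Lama5, and the others up to 0.108. With upper quartile scaling the unadjusted p was 0.0689. Lama4, an alpha chain of vessels, measured 65.0, 60 and 199 CPM in KO lesions, beside WT values of 93.7 to 147 CPM, and KO replicate 3 also had the highest Lamb1 (401 CPM) and Lamc1 (353 CPM) of all lesions.

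That lesion also had the highest endothelial marker sum, 590 CPM against 314 and 218 CPM in KO replicates 1 and 2 and 460 to 540 CPM in WT lesions. Without it, 4 of these 5 chains were lower at an unadjusted p under 0.05, beside 12.4% of all genes, and Lamb2 was the exception. The class median was then -0.73. With all lesions 1 of the 5, Lama5, was lower, beside 8.16% of all genes. The part of vessel content in these values was not tested.

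Of the remaining chains, Lamc3 measured 36.8, 19.2 and 8.22 CPM for WT, against 4.25, 5.12 and 8.90 CPM for KO lesions. The highest KO lesion lay above the lowest WT lesion, and the WT lesions spread widely (21.4 ± 14.4 CPM against 6.09 ± 2.47 CPM, SD, n = 3). The log2 fold change was -1.81 ± 0.59 (SE, edgeR, unadjusted p = 0.0219, adjusted p = 0.328). It was -1.17 without WT replicate 1 (unadjusted p = 0.0674), and leaving out KO replicate 1 or 2 gave an unadjusted p of 0.0762 or 0.0691. Lama2, the laminin alpha chain of muscle and nerve, had means of 37.1 and 25.6 CPM, and Lama1, a chain of embryonic and some epithelial basement membranes, stayed at or below 3.69 CPM as the only laminin above zero (log2 fold change 0.63, unadjusted p = 0.286).

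The make-up of the laminin alpha and beta chains was compared by the share of each chain among the chains of its kind, on CPM per kilobase of exon. Lama5 made 40.4% ± 4.32 of alpha chains in WT and 41.5% ± 11.3 in KO lesions (SD, n = 3), and Lamb1 55.0% ± 8.18 and 52.9% ± 9.4 of beta chains. These differences were smaller than the spread between lesions. Only Lama1 had shares without overlap, at 0.564% ± 0.301 in WT and 1.25% ± 0.551 in KO lesions (exact permutation p = 0.1, adjusted p = 0.8 over 12 shares). Lama3 made 26.9% ± 3.68 in WT and 22.0% ± 2.87 in KO lesions, with overlap (p = 0.2 in the exact permutation test).

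**Figure D5:**
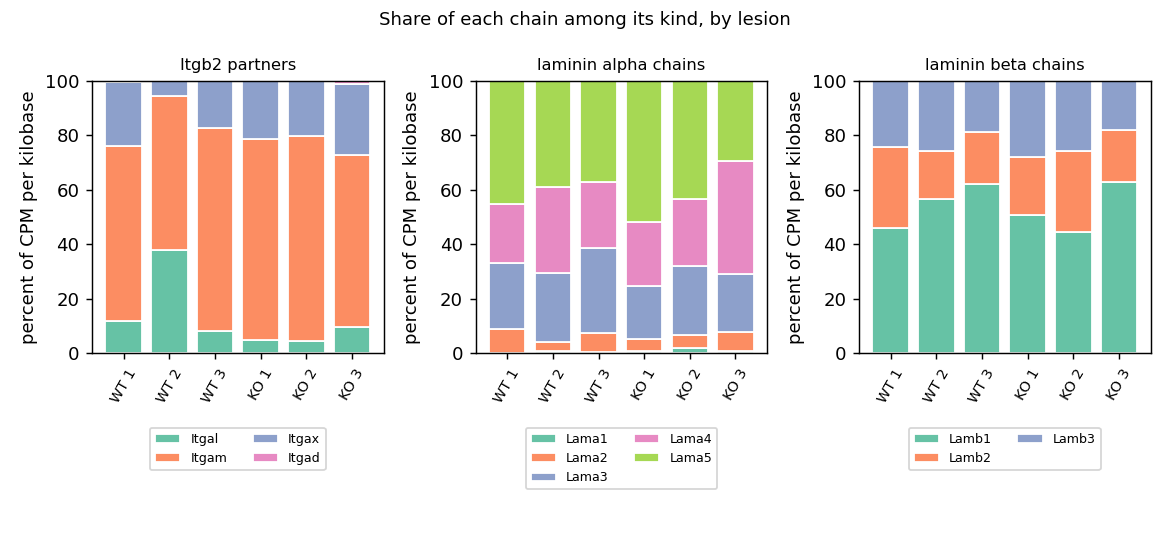
Share of each chain among the alpha partners of Itgb2 and among the laminin alpha and beta chains, in percent of summed CPM per kilobase of exon, with 1 stacked bar per lesion. Itgal takes 37.8% in WT replicate 2 and at most 11.8% elsewhere, and the laminin shares of the groups overlap except for Lama1.

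Per kilobase of exon, Itgb1 was the most abundant member in both groups (211 CPM per kilobase in WT, 201 in KO lesions), followed by Itgb5 (68.5 and 66.7). By WT means Itgb2 came next at 58.4, ahead of Itga6 (37.6) and Itgav (37.4), but its value was 118 in WT replicate 2 and 31.4 and 25.9 in WT replicates 1 and 3, below Itga6 in both of these. In KO lesions Itga6 came next at 65.5, ahead of Itgb2 (27.4), Lamb1 (26.7) and Lamc1 (26.6), while Itgav was seventh at 23.0. Neighbours such as Itga6 and Itgav in WT, or Lamb1 and Lamc1 in KO lesions, were closer than the spread of their lesions. Itga2 stood at 18.0 in WT and 6.18 in KO lesions. The lowest in both groups was Itgad (0.0529 and 0.120), then Lama1 (0.208 and 0.322).

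Genes that act with integrins were followed as 4 lists. Of 25 genes for integrin activation and focal adhesions, 2 were lower and 2 higher at an unadjusted p under 0.05, with a median log2 fold change of -0.08. With 8.16% of all genes lower and 6.55% higher, these counts were near the background. Without KO replicate 3, 5 of the 25 were lower and 2 higher, beside 12.4% and 11.5% of all genes. Parvb, a parvin that links the integrin complex to actin, was lower at 14.0, 12.3 and 25 CPM in KO against 49.9, 30.2 and 39.6 CPM in WT lesions (log2 fold change -1.22, unadjusted p = 0.0107). Its paralog Parva was higher, with means of 227 CPM in KO and 179 CPM in WT lesions (log2 fold change 0.34, unadjusted p = 0.0452). Both parvins showed no overlap between the groups, in opposite directions.

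Tns1, a tensin that binds the tails of beta integrins, measured 617, 568 and 418 CPM in KO and 331, 226 and 216 CPM in WT lesions (log2 fold change 1.05, unadjusted p = 0.00558). Rap1a, a small GTPase that switches integrins on, was lower with means of 73.0 and 93.1 CPM (log2 fold change -0.35, unadjusted p = 0.0266). Tns1 is abundant in smooth muscle, whose marker list had 3 of 6 genes higher at an unadjusted p under 0.05 and summed to 2096 to 3651 CPM in KO and 1039 to 4817 CPM in WT lesions, and its part in the Tns1 level was not tested.

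Of 10 ligands of leukocyte integrins, 8 were tested, 1 was lower, beside 8.16% of all genes, and 0 higher, and the median was 0.05. The lower gene was Icam1, the ligand of the receptor formed by Itgal and Itgb2, at 36.6, 27.8 and 47.7 CPM in KO against 64.9, 170 and 69.5 CPM in WT lesions. Its log2 fold change was -1.44 ± 0.44 (SE, edgeR, unadjusted p = 0.0167), and -0.85 without WT replicate 2 (unadjusted p = 0.0165). Itgal and Icam1, receptor and ligand, were thus both lower in every KO lesion.

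Of 11 matrix ligands such as fibronectin (Fn1), osteopontin (Spp1) and periostin (Postn), 0 were lower and 0 higher in edgeR at an unadjusted p under 0.05, with a median of -0.45. Without KO replicate 3, 7 of the 11 were lower, where 12.4% of all genes were. Of 18 basement membrane partners and laminin receptors, 1 was lower, beside 8.16% of all genes, 0 were higher and the median was 0.00. Without KO replicate 3, 8 of the 18 were lower, beside 12.4% of all genes, with a median of -0.42. The lower gene with all lesions was Plec, which encodes plectin, the linker between the Itga6 and Itgb4 receptor and keratin filaments and a cytoskeletal linker of muscle. It measured 215, 190 and 224 CPM in KO and 529, 383 and 447 CPM in WT lesions, without overlap (log2 fold change -1.11 ± 0.18, SE, edgeR, unadjusted p = 0.000767, adjusted p = 0.321). Skeletal muscle markers summed to 28496, 4.07 and 30807 CPM in the WT lesions and to at most 15.5 CPM in KO lesions, and their part in the Plec level was not tested.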

How the data were processed

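Whole-lesion mRNA of 3 WT and 3 KO lesions was sequenced from TruSeq stranded mRNA libraries. The authors deposited a table of unnormalized read counts, whole numbers for each of 56884 genes. The submitters' processing notes name Trimmomatic, featureCounts and DESeq2 with GRCm39, whereas the paper names GRCm38. The aligner, the annotation release and the strand setting of the counting are not given in the sources used here, so no gene coordinates are printed, only those of RefSeq promoter windows on their own build, and the counts of Itga4, Itga7, Itga8, Itgad, Itgav, Itgb4, Lama2, Lama3 and Lamc3, which share exon bases with a gene on the opposite strand, are uncertain to that extent, as are those of Itga1, Itga10, Itgad and Itgam, which share bases with a gene on the same strand. Identifiers were matched without version to GENCODE M21 symbols (51948 of 56884, and 35 with the same version), and those without a match held 3.04% to 3.56% of counts. Exon lengths are those of GENCODE M21.

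Differences were tested in edgeR 4.0.16 under R 4.3.3 (filterByExpr, TMM, a quasi-likelihood test with genotype as the only term, Benjamini-Hochberg adjustment over all 18177 genes tested). The standard error is the absolute log2 fold change over the root of F. CPM were computed from the counts with TMM factors and no prior count. Ratios and shares were compared by exact two-sided permutation tests in scipy 1.17.1. Alternatives were DESeq2 1.42.0 with its Wald test, DESeq2 size factors, upper quartile scaling, no filter beyond 1 count, at least 10 counts in every library, the replicate number as a block, and each lesion left out. Intervals were not computed from counts, since reads without molecular identifiers would cover counting error only. Donors were 3 per group by the study's methods. Labels do not say which donor gave which library, so p-values may measure spread that is partly technical.

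Values in every lesion are given for members with an unadjusted p under 0.05, members without overlap, Itgb1 and Itgb2, and up to 4 genes per pathway list past that threshold. Itga6, Itgb6 and the marker values named beside results were chosen after their values were seen. Of the 37 genes the symbol rule takes, 1 is not reported here. The members and lists were chosen with earlier results of these data known.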

Additional observations from a re-analysis of the deposited data

How the results depend on the processing

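Of the 9 members followed through the 12 alternatives (Itgal, Itgb7, Itga2, Itgav, Lama3, Lama5, Lamc3, Itgb1 and Itgb2), 78 values kept direction and side of the threshold, 28 lost an unadjusted p under 0.05, and 2 reversed, both for Itgb1 (0.02 with upper quartile scaling and 0.05 without KO replicate 2, in a range from -0.16 to 0.05 with each lesion left out). Upper quartile scaling raised the median of all genes to 0.11 and left 4 lower members beside 6.49% of all genes (1179 genes lower and 1945 higher, against 1484 and 1190 with TMM), and the filter of at least 10 counts removed Itgad. With each lesion left out, lower members numbered 1 to 16 and higher members 0 to 1, the latter being Itga6 without KO replicate 3. The class medians then ranged from -1.27 to -0.34 for leukocyte integrins, -0.22 to 0.30 for the platelet pair, -0.37 to -0.05 for epithelial integrins, -0.74 to -0.23 for stromal, muscle and wide integrins, -0.66 to -0.37 for the epithelial laminin chains, -0.73 to -0.13 for general laminin chains and -1.20 to -0.25 for other laminin chains, with the lowest of each, other than the platelet pair and epithelial integrins, in the fit without KO replicate 3 and the highest of the leukocyte integrins without WT replicate 2. Per sum of 4 pan-leukocyte genes instead of Ptprc, the log2 difference was -1.20 for Itgal, -0.07 for Itgb2, -0.28 for Itga4 and -0.65 for Itgb7. The cause of these changes was not tested. Same-numbered lesions did not deviate together (r = 0.03, -0.15 and -0.20 across genes, with every KO lesion closest to a WT lesion of another number), so the numbers do not pair them. With the replicate block, 5 members were lower beside 4.33% of all genes, namely Itga2, Itgav, Lama3, Itgb6 and Itga11. Itgal, Itgb7, Lama5 and Lamc3 were not called there (edgeR, unadjusted p from 0.071 to 0.127). All 84 alternatives of the chain shares moved by less than the spread between lesions. At 45370342 counts or more per library, the precision of most members rested on the spread between 3 lesions, and Itgad, at 0.0427 to 1.42 CPM, was the member most limited by depth.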

Other observations

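Integrin-related genes outside the symbol rule gave 2 more values. Itgb2l, a neighbour in sequence of Itgb2 that neutrophils express, was read at 0.171, 1.08 and 0.0427 CPM in WT replicates 1, 2 and 3 and at 0 in all KO lesions, and it was too low to be tested. Itgbl1, a secreted protein with integrin beta-like repeats, measured 61.3, 16.0 and 54.8 CPM for WT, against 17.5, 12.5 and 40.9 CPM for KO lesions (log2 fold change -0.90, edgeR, unadjusted p = 0.21).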
